A study of Homo sapiens with 25 samples.

Results

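The library of hiF-T cells under DOT1L inhibition was compared with the DMSO library of the same replicate. These are 2 of the 25 libraries of the series, taken by their treatment labels and replicate number, and both belong to a drug set of 5 libraries. The others in that set are LSD1 inhibition replicate 1, no drug replicate 2 and LSD1 inhibition replicate 2. The hiF-T line is a fibroblast-like human line made from BJ skin fibroblasts, with TERT, the catalytic subunit of telomerase, under inducible control, and all libraries carry the genotype label WT. The remaining 20 libraries are ungated cells and 4 gates of a dye sort, with 4 biological replicates each. The labels name the inhibited enzyme but no compound, dose or exposure time, and do not say whether the no drug cells received any solvent.

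DOT1L is the methyltransferase that places methyl groups on lysine 79 of histone H3 (H3K79) in the body of transcribed genes. It has no SET domain, unlike most lysine methyltransferases, and works with AF9, ENL and AF10 (encoded by MLLT3, MLLT1 and MLLT10), proteins that also bind the elongation machinery of RNA polymerase II. In leukaemias with KMT2A rearrangements, DOT1L activity sustains the expression of HOXA genes and MEIS1. In human fibroblasts, loss or inhibition of DOT1L is known to raise the yield of reprogramming to pluripotency and to lower genes of mesenchymal identity.

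Each treatment compared here had 1 library, so no difference has a replicate check and no test was made. Values are counts per 1e+06 gene counts after TMM scaling over the 5 drug set libraries (CPM), and a log2 ratio sets DOT1L inhibition against DMSO with a prior count of 2. Gene counts summed to 17223532 in the DOT1L inhibition library and 16139239 in the DMSO library, within the series' range of 15015039 to 20030093. A gene with no count could lie at up to 0.174 CPM and 0.186 CPM in them, a limit of 3 counts that covers counting error only. The DOT1L inhibition library had the lowest share of reads assigned to no feature of all 25 libraries (4.33%, against 4.84% for DMSO and up to 7.72%) and the highest share of ambiguous reads (7.62%, against 7.19% for DMSO). Mitochondrial genes took 3.06% of its gene counts and 2.50% of those of DMSO. The part of these shares in the results below was not tested. Fibroblast identity was in place, with 9 of 10 fibroblast markers measured (mean of at least 1 CPM). Their summed level was 9773 to 11780 CPM over the 5 drug set libraries. None of 6 myeloid and erythroid markers was measured, and KRT5, SOX10 and HBB had no count in any of the 5 libraries. Of 8 epithelial markers 3 were measured, at a summed 223 CPM in DMSO and 243 CPM under DOT1L inhibition. Of 5 endothelial markers 2 were measured (71.8 and 60.1 CPM), and of 7 melanocyte and Schwann cell markers 1 (5.73 and 11.9 CPM).

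DOT1L itself, the targeted gene, stood at 34.4 CPM in DMSO and 33.0 CPM under DOT1L inhibition. LSD1 inhibition replicate 1 held 35.5 CPM, while the replicate 2 libraries held 47.9 (no drug) and 46.7 CPM (LSD1 inhibition). The 3 libraries of replicate 1 were thus close together and below both libraries of replicate 2, and below the ungated libraries (38.4, 47.5 and 52.2 CPM as lowest, median and highest). The log2 ratio against DMSO was -0.06 (95% counting interval -0.23 to 0.11). The label refers to the enzyme's activity, which RNA does not measure, so the level of DOT1L RNA does not check the treatment.

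Of 33 DOT1L partners and elongation factors, 31 were measured, and 0 differed from DMSO by 1.5-fold in either direction. Their median log2 ratio was -0.02, the same as the median of all 12866 measured genes. MLLT3 stood at 17.8 CPM in both libraries, MLLT1 at 86.1 and 88.1 CPM, and MLLT10 at 32.8 and 33.4 CPM in DMSO and DOT1L inhibition. KMT2A, a methyltransferase of H3 lysine 4, stood at 116 and 115 CPM. The widest difference was that of PSIP1, a chromatin reader, at 125 CPM in DMSO, 94.5 under DOT1L inhibition and 120 CPM under LSD1 inhibition replicate 1. The replicate 2 libraries lay at 86.4 and 89.1 CPM for PSIP1, on the far side of DOT1L inhibition.

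Across all 12866 measured genes, 284 (2.21%) were at least 2-fold higher under DOT1L inhibition than in DMSO and 54 (0.42%) at least 2-fold lower. At 1.5-fold, 787 (6.12%) were higher and 348 (2.7%) lower. The same count between no drug and DMSO, both without an inhibitor but of different replicates, was 149 higher (1.16%) and 138 lower (1.07%) at 2-fold. The SD of the log2 ratio over genes was 0.37 in both comparisons, while the balance of 284 higher against 54 lower genes was not seen for no drug. LSD1 inhibition replicate 1, which shares the DMSO library with this comparison, had 210 genes at least 2-fold higher (1.63%) and 33 lower (0.256%). Against the no drug library in place of DMSO, 393 genes (3.05%) were at least 2-fold higher and 138 (1.07%) lower under DOT1L inhibition, and 150 of the 284 and 25 of the 54 genes were also 2-fold apart from no drug. Replicate and DMSO cannot be told apart in that control.

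Most of the genes with large ratios had low counts. The 284 higher genes had a median of 1.49 CPM in DMSO and 4.07 CPM under DOT1L inhibition, against 26.7 CPM in DMSO over all measured genes. With a mean of at least 5 CPM over the drug set, 68 genes were 2-fold higher and 15 lower. The counting intervals lay above 0 for 281 of the 284 and below 0 for 52 of the 54. Protein-coding genes made up 90.5% of the higher genes, near the 89.7% of all measured genes, but 53.7% of the lower genes. For each gene the DOT1L inhibition library was also set against the other 4 libraries of the drug set. It was above all 4 for 2512 genes (19.5%) and below all 4 for 2914 genes (22.6%). If the 5 libraries were alike, each would be highest for about 1 gene in 5 and lowest for as many. These counts therefore do not set the library apart. The balance of these counts depended on the scaling, with 3143 genes above and 2329 below under total gene counts, and 2761 above and 2659 below under DESeq2 size factors. Under the TMM scaling both conditions (2-fold from DMSO and outside the other 4) held for 216 genes (1.68%, 2-fold higher) and 50 genes (0.389%, 2-fold lower).

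**Figure D1:**
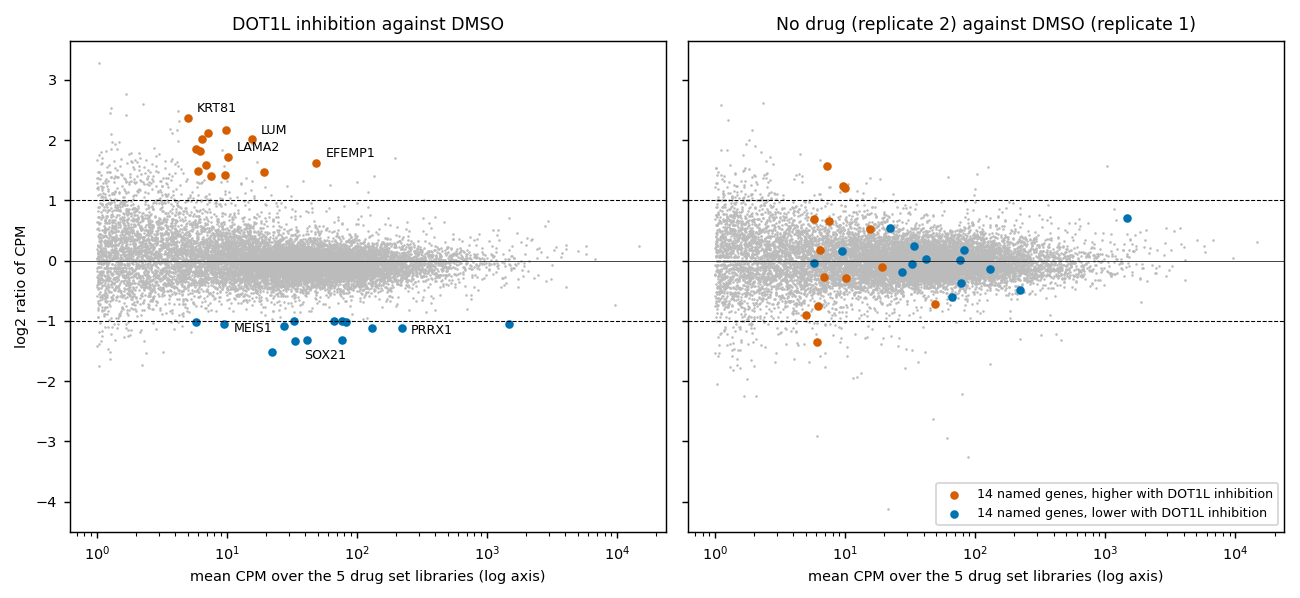
Log2 ratio of CPM against mean CPM over the 5 drug set libraries (log axis), 1 point per measured gene, for DOT1L inhibition against DMSO (left) and no drug against DMSO (right). Dashed lines mark 2-fold, and coloured points are the 14 genes named as higher and the 14 named as lower. The coloured genes lie beyond the dashed lines on the left by their choice and spread to both sides of 0 on the right.

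HOX genes and their cofactors had the lowest median ratio of the 44 lists with at least 5 measured members. HOX proteins are homeodomain factors that hold positional identity in fibroblasts, and MEIS and PBX proteins bind DNA together with them. Of 45 listed genes 24 were measured, and their median log2 ratio was -0.62, with 13 at least 1.5-fold lower (all genes, 2.7%) and 2 higher (all genes, 6.12%). The DOT1L inhibition library was below the other 4 drug set libraries for 18 of 24 (all genes, 22.6%) and below the other 24 libraries of the series for 11 of 24 (all genes, 7.97%). Against no drug the median was -0.48. The same list had a median of -0.13 for no drug against DMSO and -0.03 for LSD1 inhibition replicate 1 against DMSO.

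Start sites of 4 of the genes that were lower are shown because they include the HOX cofactor MEIS1, members of the HOXA cluster and the start of a divergent pair described below (SOX21). Each is the RefSeq promoter window of 300 bases on GRCh38.p14, from 250 bases before to 50 after the annotated start, 5′ to 3′ on the gene's strand, with CpG dinucleotides in capitals.
MEIS1 (chr2:66434875-66435174, plus strand): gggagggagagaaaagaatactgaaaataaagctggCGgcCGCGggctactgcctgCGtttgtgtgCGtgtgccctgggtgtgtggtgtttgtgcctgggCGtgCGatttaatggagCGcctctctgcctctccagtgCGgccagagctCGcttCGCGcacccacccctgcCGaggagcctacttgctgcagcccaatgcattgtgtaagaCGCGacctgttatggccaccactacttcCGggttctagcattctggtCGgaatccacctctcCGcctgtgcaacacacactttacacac
HOXA9 (chr7:27165488-27165787, minus strand): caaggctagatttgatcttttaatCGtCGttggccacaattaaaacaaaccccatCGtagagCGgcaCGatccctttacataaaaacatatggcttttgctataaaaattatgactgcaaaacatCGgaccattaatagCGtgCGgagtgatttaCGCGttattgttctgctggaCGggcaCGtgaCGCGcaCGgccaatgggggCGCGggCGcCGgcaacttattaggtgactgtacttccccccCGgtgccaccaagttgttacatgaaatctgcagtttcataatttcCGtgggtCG
HOXA11 (chr7:27185183-27185482, minus strand): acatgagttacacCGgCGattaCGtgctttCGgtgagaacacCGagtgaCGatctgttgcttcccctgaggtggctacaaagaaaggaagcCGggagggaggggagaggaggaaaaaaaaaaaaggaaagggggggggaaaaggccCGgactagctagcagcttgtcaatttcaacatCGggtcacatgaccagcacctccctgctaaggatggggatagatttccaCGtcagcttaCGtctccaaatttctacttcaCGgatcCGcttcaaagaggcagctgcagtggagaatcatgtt
SOX21 (chr13:94712496-94712795, minus strand): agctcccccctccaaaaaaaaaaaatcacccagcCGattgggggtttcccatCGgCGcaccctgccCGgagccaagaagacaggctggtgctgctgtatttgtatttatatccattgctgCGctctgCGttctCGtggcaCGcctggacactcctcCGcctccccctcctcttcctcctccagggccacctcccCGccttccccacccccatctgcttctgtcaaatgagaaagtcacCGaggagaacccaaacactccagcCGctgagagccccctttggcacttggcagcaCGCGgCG
In this order the windows hold 18, 22, 13 and 15 CpG. Over all 35116 promoter windows of the table the median was 14 CpG and 41.2% held at least 20, and over the measured protein-coding genes the median was 27. The letters TATAAA occurred on the gene's strand in the HOXA9 window of these 4, and in 7.33% of all windows. Promoter windows were found for 74.2% of the higher and 69% of the lower protein-coding genes, under the 80% needed, so a comparison of CpG content between higher and lower genes is void.

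MEIS1, the HOX cofactor (GRCh38 chromosome 2, 66433452 to 66573869, plus strand), stood at 15.2 CPM under DOT1L inhibition, from 267 counts. DMSO held 32.6 CPM (523 counts), LSD1 inhibition 30.8 and 29.7 CPM and no drug 28.6 CPM. The other 4 libraries lay close together and DOT1L inhibition lay apart from all of them. The log2 ratio was -1.09 against DMSO (counting interval -1.32 to -0.88) and -0.91 against no drug. Ungated cells ranged from 25 to 38.5 CPM with a median of 29.3. With all 25 libraries scaled together, the other 24 held 23.0 to 43.1 CPM of MEIS1, all above the 15.3 CPM of DOT1L inhibition on that scale. PBX3, a partner of MEIS and HOX proteins, was at 21.1 CPM, against 35.7 CPM in DMSO, 36 and 29.1 CPM under LSD1 inhibition and 35.4 CPM in no drug. PBX3 too was below all 24 other libraries, whose lowest value was 28.0 CPM. MEIS2 (64.7 CPM in DMSO, 49.5 under DOT1L inhibition) and PBX2 (36.1 and 34.3 CPM) differed less. MEIS3 lay above the other 4 libraries, at 2.45 CPM against 1.18 CPM in DMSO.

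In the HOXA cluster 9 of 11 genes were measured, 8 lay below the other 4 libraries and 7 were at least 1.5-fold lower than DMSO, with a median log2 ratio of -0.83 (-0.46 against no drug). HOXA9 stood at 24.1 CPM, with 43.7 CPM in DMSO, 46.4 and 35.4 CPM under LSD1 inhibition and 33.2 CPM in no drug. Its ungated values were 33.1 to 39.8 CPM. HOXA10 was at 11.3 CPM, with 22.3 CPM in DMSO, 29.4 and 28.7 CPM under LSD1 inhibition and 19.7 CPM in no drug. For both genes LSD1 inhibition replicate 1 was the highest library and DOT1L inhibition the lowest. HOXA11 was at 15.4 CPM, with 29.8 CPM in DMSO, 33.7 and 24.1 CPM under LSD1 inhibition and 24 CPM in no drug. HOXA9, HOXA10, HOXA11 and HOXA2 (2.05 CPM against 3.61 in DMSO) were below all 24 other libraries. HOXA5 depended on the control, at 6.04 CPM against 10.8 CPM in DMSO but 6.60 CPM in no drug (log2 ratio -0.13). HOXA-AS3, a transcript antisense to the middle of the cluster and named here after its value was seen, had 5 counts under DOT1L inhibition and 20 in DMSO, the lowest log2 ratio of all measured genes (-1.75). The library kit does not mark strand, so where HOXA genes and antisense transcripts overlap, their reads cannot be told apart.

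The HOXD cluster had 6 measured genes, all of them lower than in DMSO (median log2 ratio -0.48) and 5 below the other 4 libraries. HOXD10 was at 19 CPM, with 31.0 CPM in DMSO, 25.8 and 32.5 CPM under LSD1 inhibition and 38.3 CPM in no drug. HOXD11 was at 6.89 CPM, with 10.5 CPM in DMSO, 12.4 and 14.1 CPM under LSD1 inhibition and 15.9 CPM in no drug. For HOXD genes the distance to no drug was the wider one (median -0.76), the reverse of the HOXA genes. The 2 measured HOXB genes went opposite ways. HOXB2 was at 8.26 CPM against 13.5 CPM in DMSO, below all 24 other libraries, and HOXB3 at 3.13 CPM against 1.87 CPM in DMSO, above all 24. HOXC9, the 1 measured HOXC gene, was at 1.48 CPM, inside the range of the others.

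**Figure D2:**
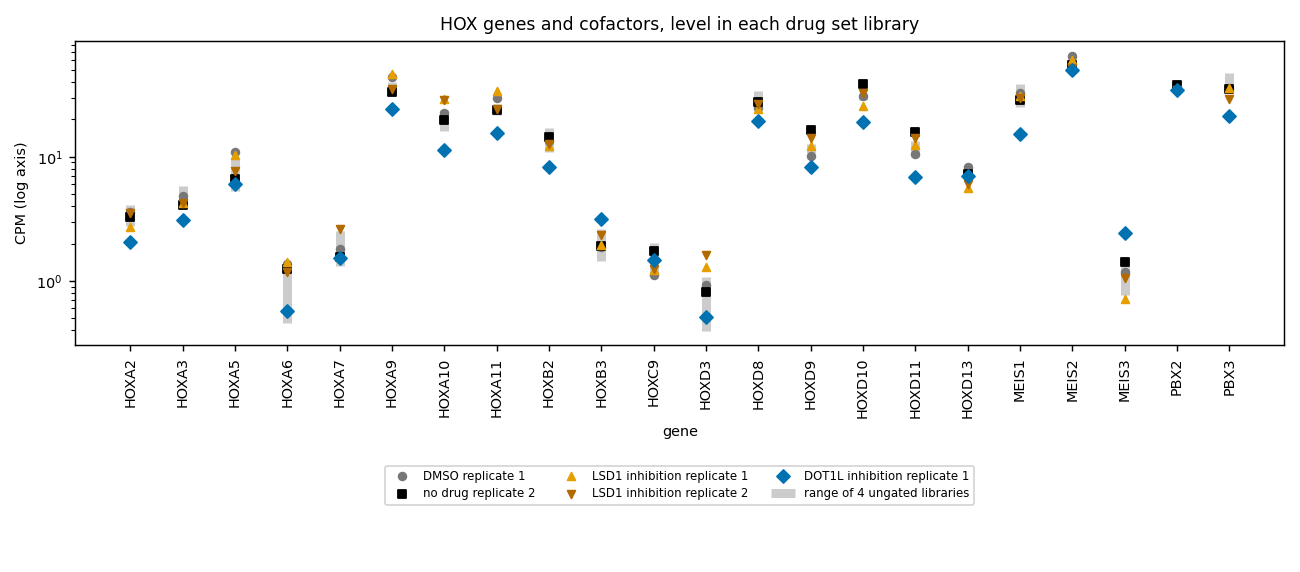
CPM (log axis) of 22 of the 24 measured HOX genes and cofactors in each of the 5 drug set libraries, with the range of the 4 ungated libraries as a grey bar. The DOT1L inhibition library (blue diamonds) is the lowest of the 5 for 18 of these genes, among them HOXA9, HOXA10, HOXA11, MEIS1 and PBX3.

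Mesenchymal transcription factors had a list median slightly below that of all genes, with several well known members lower. Of 27 measured factors 3 were at least 1.5-fold lower (all genes, 2.7%) and 1 higher, with a median log2 ratio of -0.16 (-0.25 against no drug, where that of all genes was -0.02). DOT1L inhibition was the lowest of the 5 libraries for 11 of 27 (all genes, 22.6%) and below the other 24 for 7 of 27 (all genes, 7.97%). PRRX1, a homeobox factor of limb and dermal mesenchyme, was at 129 CPM under DOT1L inhibition (2272 counts, GRCh38 chromosome 1, 170662728 to 170739419, plus strand) and 283 CPM in DMSO (4541 counts). LSD1 inhibition held 259 and 228 CPM and no drug 202 CPM of PRRX1. No drug lay between DMSO and DOT1L inhibition, and the log2 ratio of -1.13 against DMSO was -0.64 against no drug. In the sort set PRRX1 reached down to 127 CPM in 1 of the high dye libraries, so its level under DOT1L inhibition was not below the whole series. FOXP1, a forkhead factor, was at 65.4 CPM against 128 CPM in DMSO, 115 and 118 CPM under LSD1 inhibition and 129 CPM in no drug. NR2F2 (COUP-TFII), a nuclear receptor of mesenchymal cells, was at 246 CPM against 435 CPM in DMSO, 401 and 436 CPM under LSD1 inhibition and 452 CPM in no drug. For FOXP1 and NR2F2 the other 4 libraries were close together, and DOT1L inhibition was below all 24 other libraries of the series.

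ZEB1, a repressor of epithelial genes, was at 58.1 CPM against 87.0 CPM in DMSO, with the other 3 drug set libraries at 74.0 to 80.5 CPM. RUNX1 (44.0 CPM against 64.1), EBF2 (18 against 26.6) and ZEB1 differed by less than 1.5-fold from DMSO but were below all 24 other libraries. TWIST1 lay above the other 4, at 21.9 CPM against 16.2 CPM in DMSO, and inside the range of ungated cells (15.8 to 26.4 CPM). SNAI1, a repressor of CDH1, was at 18.7 CPM against 11.8 CPM in DMSO, but LSD1 inhibition replicate 1 held 24.2 CPM and no drug 3.17 CPM, so DOT1L inhibition was not outside the others. SNAI2 was at 204 CPM against 221 CPM in DMSO, and ZEB2 at 73.7 against 77.5 CPM.

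The 14 lower genes with a mean of at least 5 CPM and the largest ratios included, beside PRRX1 and MEIS1, a divergent pair of genes on chromosome 13. SOX21, a SOX family factor known from neural progenitors, was at 17.3 CPM (304 counts) against 43.1 CPM in DMSO (693 counts), 47.6 and 55.5 CPM under LSD1 inhibition and 44.1 CPM in no drug. Its log2 ratio was -1.31 against DMSO and -1.34 against no drug. SOX21-AS1 was at 14.7 CPM against 29.7 CPM in DMSO, 46.5 and 44.2 CPM under LSD1 inhibition and 28.4 CPM in no drug. Both genes were lowest under DOT1L inhibition and highest in the LSD1 inhibition libraries. The annotated starts lie 171 bases apart and point away from each other, with SOX21 starting at 94712545 on the minus strand and SOX21-AS1 at 94712716 on the plus strand (GRCh38.p14), so the SOX21 window printed above spans both. High dye libraries of the sort set reached lower values for both, down to 8.32 CPM for SOX21 and 7.14 CPM for SOX21-AS1.

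A second pair of overlapping genes was lower on chromosome 12. TRHDE, an ectoenzyme that degrades thyrotropin-releasing hormone, was at 78.2 CPM against 170 CPM in DMSO, 130 and 118 CPM under LSD1 inhibition and 154 CPM in no drug. TRHDE-AS1 was at 7.92 CPM against 23.0 CPM in DMSO, 20.005 and 26.8 CPM under LSD1 inhibition and 33.5 CPM in no drug, with the lowest log2 ratio (-1.52) of the 14 lower genes with a mean of at least 5 CPM. Both lay below all 24 other libraries. The annotated spans of TRHDE and TRHDE-AS1 share 21400 bases on opposite strands, so their reads cannot be told apart with certainty.

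MIR34AHG, the host transcript of the miRNA miR-34a and a p53 target, was at 14.2 CPM against 36.2 CPM in DMSO, 29.1 and 45.3 CPM under LSD1 inhibition and 42.7 CPM in no drug. It shares 14281 bases with LNCTAM34A. SCUBE3, a secreted glycoprotein, was at 658 CPM (11557 counts) against 1360 CPM in DMSO, 1222 and 1938 CPM under LSD1 inhibition and 2217 CPM in no drug. SCUBE3 had the highest counts of the 14 lower genes and its counting interval was narrow (-1.08 to -1.01), yet ungated cells spanned 658 to 1448 CPM. ESM1 (endocan), a secreted proteoglycan, was at 43.8 CPM against 110 CPM in DMSO, 87.2 and 59.9 CPM under LSD1 inhibition and 85.1 CPM in no drug.

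MLLT11, a small protein named for its fusion with KMT2A in leukaemia, was at 36.1 CPM against 73.5 CPM in DMSO, 106 and 113 CPM under LSD1 inhibition and 82.9 CPM in no drug. BMAL2, a partner of the circadian factor CLOCK, was at 41.2 CPM while the other 4 drug set libraries lay between 82.9 and 88.8 CPM. TBX3, a T-box factor of limb development, was at 45.0 CPM against 90.2 CPM in DMSO but 59.5 CPM in no drug (log2 ratio -0.40). RFX8 (5.24 against 11 CPM) and ST3GAL6, a sialyltransferase (3.30 against 6.85 CPM), had 92 and 58 counts under DOT1L inhibition. Of the 14 lower genes 7 were also at least 2-fold lower than no drug (all genes, 1.07%), and 7 lay below all 24 other libraries (all genes, 7.97%). Their choice by large ratios below the other drug set libraries, no drug among them, raised both counts. None of the 14 lower genes was 2-fold apart from DMSO in the no drug library. The rule left little room for a 2-fold lower value there, since no drug had to lie above DOT1L inhibition.

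**Figure D3:**
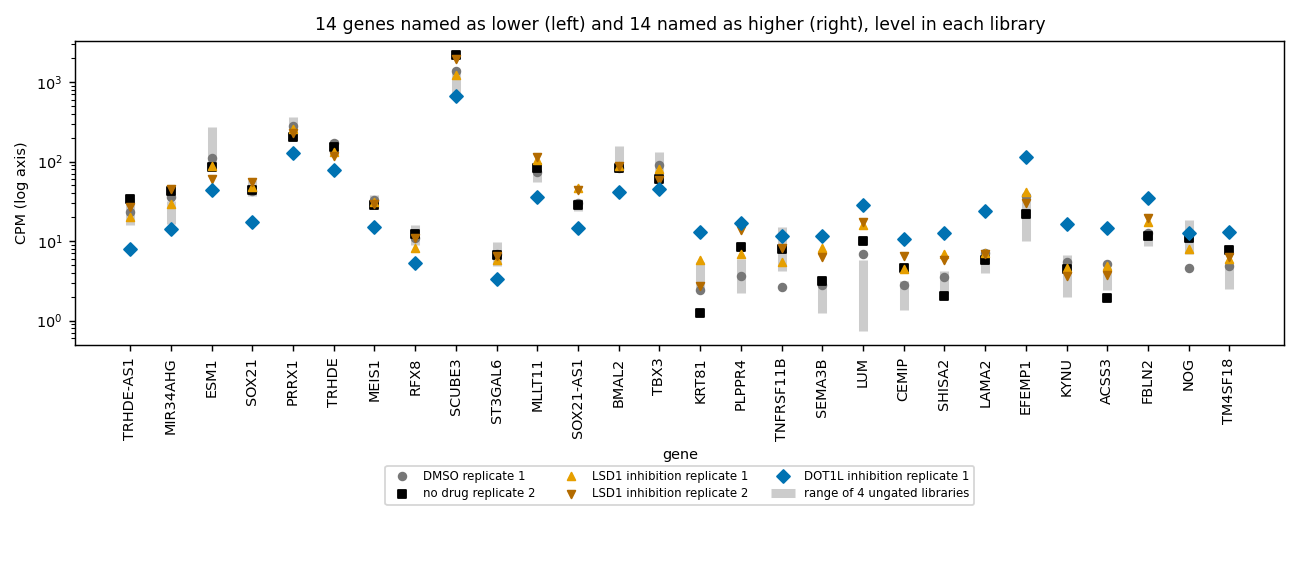
CPM (log axis) in each drug set library of the 14 genes named as lower (left) and the 14 named as higher (right), with the range of the 4 ungated libraries as a grey bar. By the rule that chose them, the DOT1L inhibition library (blue diamonds) is the lowest of the 5 on the left and the highest on the right. BMAL2 and MEIS1 show the other 4 libraries close together, while SCUBE3 and ESM1 show them spread.

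By number, matrix glycoproteins and proteoglycans held the most genes at least 2-fold higher than DMSO of any list (8 of 37 measured, all genes 2.21%). The lists differ in size. Among lists with at least 5 measured members, the share was larger for fibroblast markers (4 of 9) and the wider neuronal list (7 of 28). It was also larger for the wider epithelial and adhesion list (5 of 22). At 1.5-fold 14 of the 37 matrix genes were higher (all genes, 6.12%) and 0 lower, against 16 of 28 higher in the neuronal list. The median log2 ratio of the matrix genes was 0.30 (0.22 against no drug, 0.02 for no drug against DMSO). LSD1 inhibition was on the same side, with medians of 0.17 for replicate 1 against DMSO and 0.15 for replicate 2 against no drug. Their summed level was 29347 CPM under DOT1L inhibition and 29929 and 34218 CPM under LSD1 inhibition. DMSO held 24895 CPM and no drug 27890 CPM. DOT1L inhibition was the highest of the 5 libraries for 20 of 37 (all genes, 19.5%) and above the other 24 for 12 of 37 (all genes, 9.33%). In bulk RNA, more cells that express a gene and more RNA per cell cannot be told apart.

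EFEMP1 (fibulin-3) was at 113 CPM under DOT1L inhibition (1983 counts, GRCh38 chromosome 2, 55865967 to 55924139, minus strand) against 36.5 CPM in DMSO (587 counts). LSD1 inhibition held 41.8 and 30.0 CPM, no drug 22 CPM, and ungated cells 10.2 to 38.3 CPM. The log2 ratio was 1.62 against DMSO (counting interval 1.49 to 1.76) and 2.35 against no drug. LAMA2, the laminin chain of muscle and nerve basement membranes, was at 23.7 CPM against 7.10 CPM in DMSO, 7.12 and 6.83 CPM under LSD1 inhibition and 5.79 CPM in no drug. For LAMA2 the other 4 libraries were nearly equal and the DOT1L inhibition library stood alone. FBLN2 (fibulin-2) was at 35.3 CPM against 12.6 CPM in DMSO, 17.2 and 19.4 CPM under LSD1 inhibition and 11.7 CPM in no drug. LUM (lumican), a proteoglycan that binds collagen fibrils, was at 28.2 CPM against 6.91 CPM in DMSO, 15.8 and 17.2 CPM under LSD1 inhibition and 10.02 CPM in no drug. EFEMP1, LAMA2, FBLN2 and LUM were above all 24 other libraries.

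DCN (decorin) was at 40.8 CPM, with 19.3 CPM in DMSO but 33.1 CPM in no drug (log2 ratio 0.30), and NID2 at 159 CPM, with 86.2 CPM in DMSO and 145 CPM in no drug. For DCN and NID2 it was the DMSO and LSD1 inhibition replicate 1 libraries that were low. LAMA4 was at 134 CPM against 81.2 CPM in DMSO and 40.0 CPM in no drug. Members with few counts on the same side were TNXB (2.68 CPM against 0.809), PRELP (3.59 against 1.18) and MFAP4 (4.38 against 1.68). Members with the most counts differed little. FN1 (fibronectin) was at 14161 CPM against 11948 CPM, FBN1 (fibrillin-1) at 2118 against 2141 CPM and LAMC1, a laminin chain, at 1081 against 1070 CPM in DMSO. LTBP1, which anchors latent TGF-beta, was on the lower side, at 689 CPM against 935 CPM.

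Of 19 measured collagens 3 were at least 1.5-fold higher (all genes, 6.12%) and 0 lower, with a median log2 ratio of 0.11, while LSD1 inhibition replicate 1 had a median of 0.29 against the same DMSO library. COL3A1, the fibrillar collagen of elastic tissues, was at 165 CPM against 66.9 CPM in DMSO, 116 and 96.2 CPM under LSD1 inhibition and 53.6 CPM in no drug. COL16A1 was at 18.1 CPM, with the other 4 libraries between 7.28 and 9.31 CPM. COL3A1 and COL16A1 were above all 24 other libraries. COL1A1 (3810 CPM against 3355) and COL1A2 (4327 against 3620) were inside the range of the others, and COL6A3 was below all 24, at 3361 CPM against 4560 CPM.

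**Figure D4:**
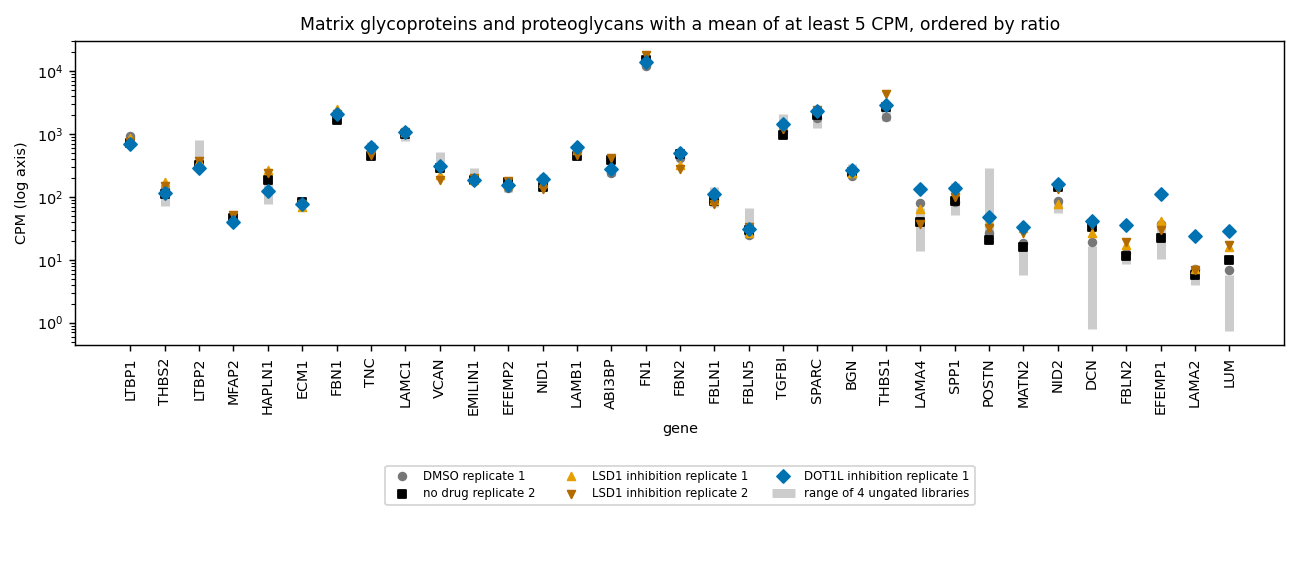
CPM (log axis) in each drug set library of matrix glycoproteins and proteoglycans with a mean of at least 5 CPM, ordered from the lowest to the highest log2 ratio against DMSO, with the range of the 4 ungated libraries as a grey bar. The DOT1L inhibition library (blue diamonds) stands above the rest at LUM, LAMA2, EFEMP1 and FBLN2, and overlaps the other libraries at FN1, FBN1, LAMC1 and TNC.

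The highest ratio among the 14 higher genes with a mean of at least 5 CPM was that of KRT81, a hair keratin. It was at 13.1 CPM (230 counts) against 2.43 CPM in DMSO (39 counts), 5.70 and 2.73 CPM under LSD1 inhibition and 1.24 CPM in no drug, with a log2 ratio of 2.37 (counting interval 1.94 to 2.96). KRT81 has close paralogs in the hair keratin cluster, and how the counting treated reads shared with them is not given in the sources used here. SEMA3B, a secreted semaphorin, was at 11.7 CPM against 2.80 CPM in DMSO, 8.16 and 6.39 CPM under LSD1 inhibition and 3.17 CPM in no drug. LSD1 inhibition replicate 1 was at least 2-fold above DMSO for KRT81 and SEMA3B too, with the DMSO library shared. PLPPR4, a membrane protein of neurons, was at 16.7 CPM against 3.61 CPM in DMSO, but LSD1 inhibition replicate 2 held 13.8 CPM and no drug 8.52 CPM (log2 ratio 0.96 against no drug). DMSO was the lowest of the 5 libraries for PLPPR4.

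KYNU (kynureninase) and ACSS3, an enzyme that activates short acids in mitochondria, stood apart more clearly. KYNU was at 16.5 CPM and the other 4 libraries at 3.60 to 5.42 CPM. ACSS3 was at 14.6 CPM and the others at 1.93 to 5.11 CPM. KYNU reached 17.8 CPM in 1 high dye library of the sort set, whereas ACSS3 was not above 5.13 CPM in any other library. SHISA2 (12.8 CPM against 3.55 in DMSO), CEMIP, a hyaluronan-degrading protein (10.5 against 2.80 CPM), and TM4SF18 (12.9 against 4.79 CPM) were above all 24 other libraries. Against no drug the log2 ratios of SHISA2, CEMIP and TM4SF18 were 2.57, 1.16 and 0.74, the last of them below 2-fold. Of the 14 higher genes 11 lay above all 24 other libraries (all genes, 9.33%) and 10 were also at least 2-fold higher than no drug (all genes, 3.05%). Their choice by large ratios above the other drug set libraries, no drug among them, raised both counts. Against the same DMSO library, LSD1 inhibition replicate 1 was 2-fold higher for 4 of the 14 (all genes, 1.63%). No drug was 2-fold higher for 3 (all genes, 1.16%) and 2-fold lower for 1 (all genes, 1.07%). The choice by a large ratio over this DMSO library could raise the counts of 4 and 3 as well. Counts of the 14 higher genes under DOT1L inhibition ran from 184 to 1983.

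The 14 higher genes also held NOG and TNFRSF11B, which lay closer to no drug than to DMSO. NOG (noggin), a BMP antagonist, was at 12.6 CPM against 4.61 CPM in DMSO, 7.90 and 11.9 CPM under LSD1 inhibition and 11 CPM in no drug. TNFRSF11B (osteoprotegerin), a decoy receptor for RANKL, was at 11.7 CPM against 2.61 CPM in DMSO, 5.50 and 8.19 CPM under LSD1 inhibition and 8.03 CPM in no drug. DMSO was the lowest of the 5 libraries for NOG and TNFRSF11B, and their log2 ratios of 1.43 and 2.11 against DMSO were 0.19 and 0.54 against no drug. Ungated cells reached 18.3 CPM of NOG and 14.9 CPM of TNFRSF11B. In the list of TGF-beta and BMP ligands, receptors and feedback genes, 7 of 37 were at least 1.5-fold higher (all genes, 6.12%) and 0 lower (all genes, 2.7%), with a median of 0.11 against DMSO and 0.19 against no drug. Of these, GDF6 (23.1 against 7.35 CPM) was matched by LSD1 inhibition replicate 2 (24.2 CPM), and TGFB2 (25.7 against 11 CPM) nearly so (24.4 CPM). The BMP receptor BMPR2 was below all 24 other libraries, at 136 CPM against 191 CPM in DMSO.

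Inflammatory genes gave 6 of 24 at least 1.5-fold higher (all genes, 6.12%) and 1 lower (all genes, 2.7%), with a median of 0.22 against DMSO and 0.73 against no drug. PTGES, the prostaglandin E synthase, was at 11.3 CPM against 2.43 CPM in DMSO, 4.01 and 2.05 CPM under LSD1 inhibition and 0.996 CPM in no drug, above all 24 other libraries. IL7R was at 185 CPM, and the other 4 libraries lay between 84.1 and 114 CPM, but ungated cells reached 189 CPM. IL1R1 was at 37.2 CPM against 22.5 CPM in DMSO, above all 24. IL1B was at 13.95 CPM against 9.15 CPM in DMSO and 2.61 CPM in no drug.

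Genes known from neurons, some of them already well expressed in DMSO, were on the higher side in median against both controls. In the wider neuronal list 16 of 28 measured genes were at least 1.5-fold higher than DMSO (all genes, 6.12%) and 1 lower, with a median log2 ratio of 0.69 (0.57 against no drug, 0.04 for no drug against DMSO). The summed level of these 28 genes was 2537 CPM in DMSO, 2636 under DOT1L inhibition, 2715 under LSD1 inhibition replicate 1 and 2280 CPM in no drug, so the sum did not set the libraries apart. GRIK2, a kainate receptor subunit, was at 10.8 CPM against 2.05 CPM in DMSO, 2.59 and 3.23 CPM under LSD1 inhibition and 2.86 CPM in no drug. NEFL, the light neurofilament chain, was at 7.80 CPM against 1.18 CPM in DMSO, 1.23 and 0.745 CPM under LSD1 inhibition and 0.373 CPM in no drug. NEFM, the medium chain, was at 623 CPM against 383 CPM in DMSO and 163 CPM in no drug. GRIK2, NEFL and NEFM were above all 24 other libraries. KCNMA1, a potassium channel that fibroblasts also express, was below all 24, at 298 CPM against 459 CPM in DMSO. Of 6 defining neuronal markers 3 were measured, with a median log2 ratio of 0.24 and a summed level of 50.3 CPM under DOT1L inhibition, 41.0 CPM in DMSO, 40.1 and 35.99 CPM under LSD1 inhibition and 34.1 CPM in no drug. MAP2, a microtubule protein of dendrites, was at 9.74 CPM against 6.23 CPM in DMSO, and SYT1, a calcium sensor of synaptic vesicles, at 38.7 against 32.7 CPM. MAP2 and SYT1 lay above the other 4 drug set libraries but not above the other 24. TUBB3 was at 1.94 CPM against 2.05 CPM in DMSO, and SNAP25, STMN2 and ELAVL4 were at 0.171 CPM or less under DOT1L inhibition. The part of these markers in the result was not tested.

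In the wider epithelial and adhesion list 10 of 22 genes were at least 1.5-fold higher (all genes, 6.12%) and 2 lower (all genes, 2.7%) than DMSO, with a median log2 ratio of 0.52, but against no drug the median was -0.08. DOT1L inhibition was above the other 24 libraries for 7 of 22 (all genes, 9.33%). KRT19 was at 12.2 CPM against 3.11 CPM in DMSO, yet LSD1 inhibition held 19.4 and 35.0 CPM and no drug 8.28 CPM. PKP2, a desmosomal protein, was at 10.1 CPM against 3.86 CPM, and LSD1 inhibition replicate 2 held 9.87 CPM. LAMA3, a laminin chain of epithelial basement membranes, was at 6.95 CPM, with the other drug set libraries at 2.80 to 4.92 CPM, and DSG2, a desmosomal cadherin, at 17.8 CPM, with the others at 6.14 to 11.1 CPM. PKP2, LAMA3 and DSG2 were above all 24 other libraries. CDH2 (N-cadherin) was at 166 CPM against 235 CPM in DMSO, 290 and 290 CPM under LSD1 inhibition and 258 CPM in no drug, less than 1.5-fold apart from DMSO. CDH4 (27.2 against 45.5 CPM) and CDH6 (16.3 against 26.1 CPM), the 2 lower genes at 1.5-fold, were below all 24 other libraries, as was CDH2. CDH1 (E-cadherin) had 1 count under DOT1L inhibition and 2 in DMSO, too few to compare, and KRT14 and ESRP1 were also near or at 0. Of the 8 defining epithelial markers 3 were measured, all 3 higher than DMSO (median log2 ratio 0.44) and 1 at least 2-fold. Against no drug their median was 0.10, and 0 of them lay above the other 4 libraries.

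**Figure D5:**
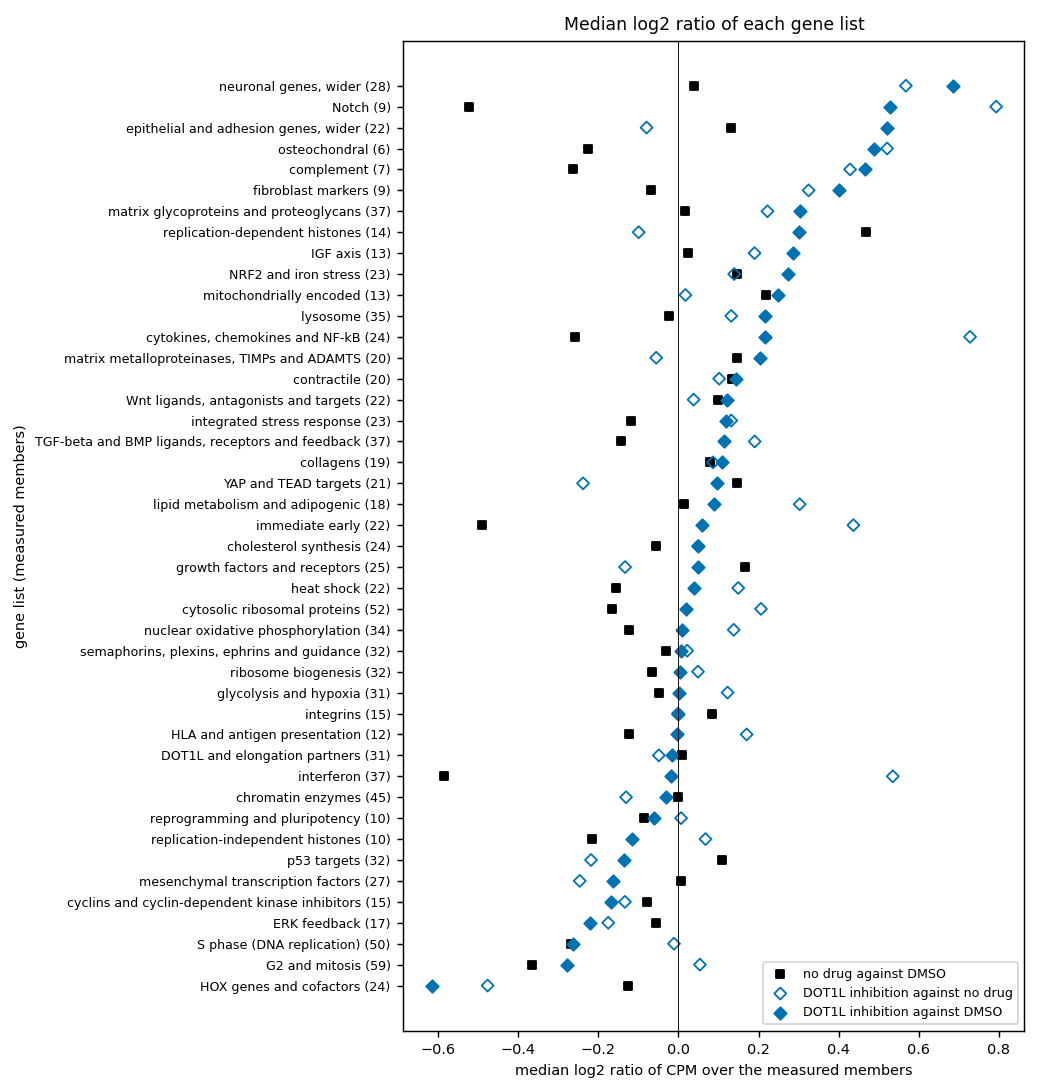
Median log2 ratio over the measured members of each of 44 gene lists with at least 5 measured members, for DOT1L inhibition against DMSO (filled diamonds), DOT1L inhibition against no drug (open diamonds) and no drug against DMSO (squares). HOX genes and cofactors are lowest for both DOT1L inhibition ratios, while S phase and G2 and mitosis genes are below 0 against DMSO and near 0 against no drug.

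Reprogramming and pluripotency factors had a list median near that of all genes. Of 10 measured genes 0 were at least 1.5-fold higher (all genes, 6.12%) and 1 lower (all genes, 2.7%), with a median log2 ratio of -0.06. POU5F1 (OCT4) was at 2.05 CPM against 3.18 CPM in DMSO (counting interval of the log2 ratio -1.29 to 0.01), SOX2 at 2.39 against 2.86 CPM, KLF4 at 17.1 against 18.3 CPM and MYC at 101 CPM in both. TERT, under inducible control in this line, was at 614 CPM against 675 CPM in DMSO and 483 CPM under LSD1 inhibition replicate 1. No drug and LSD1 inhibition replicate 2 held 2003 and 1414 CPM of TERT. The 2 libraries of replicate 2 thus held more TERT than the 3 of replicate 1.

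Genes of proliferation were at the level of the no drug library. S phase genes (50 measured) had a median log2 ratio of -0.26 against DMSO and -0.01 against no drug, and G2 and mitosis genes (59 measured) -0.28 and 0.05. The DOT1L inhibition library was below the other 4 for 5 of 50 and 3 of 59 of these genes, against 22.6% of all genes. Among p53 targets 18 of 32 were below the other 4, but 0 differed by 1.5-fold from DMSO (median -0.14). MDM2, the ubiquitin ligase of p53, was at 54.9 CPM against 77.4 CPM in DMSO, 76.6 and 91.3 CPM under LSD1 inhibition and 87.3 CPM in no drug. CDKN1A (p21) was inside the range of the others, with a log2 ratio of 0.13. Of 15 measured cyclins and inhibitors of cyclin-dependent kinases 3 lay above (all genes, 19.5%) and 6 below (all genes, 22.6%) the other 4 libraries. CDKN1B (p27) was at 26.8 CPM against 47.9 CPM in DMSO (log2 ratio -0.83), below all 24 other libraries. CDKN2B (p15) was at 16.6 CPM against 11.7 CPM in DMSO (log2 ratio 0.50), above all 24.

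Because H3K79 methylation marks gene bodies, the annotated length of the genes was examined. Protein-coding genes at least 2-fold higher had a median span of 36.9 kb, those 2-fold lower 36.4 kb (29 genes) and all measured ones 34.8 kb. At 1.5-fold the median was 35.7 kb for 660 higher and 46.2 kb for 228 lower genes. In 4 groups of equal size by span, from the shortest to the longest genes, the median log2 ratio was 0.06, 0.00, -0.07 and -0.08. The same groups gave 0.04, 0.00, -0.07 and -0.07 for no drug against DMSO, where no inhibitor was used. With DOT1L inhibition set against no drug, the medians were 0.02, -0.02, -0.03 and -0.02, with no order by length.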

How the data were processed

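Poly(A) RNA was sequenced in bulk from hiF-T cells, with libraries made by a NEBNext Ultra II RNA kit that does not mark strand, per the labels' protocols. The authors aligned reads with STAR and counted them per gene with HTSeq on hg38 (GRCh38), per the submitters' processing notes, which give no version. The annotation release and strand setting are not given in the sources used here. The deposited values are raw counts for 58302 Ensembl genes, with symbols for 57532 from the gene name table and entries for 58039 in GENCODE 29, the source of gene coordinates and spans (GRCh38). Reads outside genes were kept out of library sizes. A series-wide table was not used.

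From the counts, CPM and log2 ratios (prior count 2) were computed with edgeR 4.0.16 in R 4.3.3, with TMM factors over the 5 drug set libraries and a filter at a mean of 1 CPM. Ungated values and positions against the other 24 libraries use TMM over all 25 libraries, a scale within 1% of the first for these 5. Counting intervals (95%) are exact binomial intervals on the pair of counts. The calculation of the ratios was checked on simulated counts with known fold changes. Genes were named by rule: the 14 highest and 14 lowest ratios among genes with a symbol, a mean of at least 5 CPM and a DOT1L inhibition value outside the other 4 drug set libraries, all members of the lists of DOT1L partners, HOX genes, mesenchymal and reprogramming factors, and up to 4 members with the largest ratio of each of 49 gene lists, at a mean of at least 5 CPM. A few members that the rule names are not reported here. Members further named beside these were chosen after their values were seen. The members and lists were chosen with earlier results of these data known. Alternatives changed scaling (DESeq2 1.42.0 size factors, total counts, TMM over 25 libraries), prior count, filter and control.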

Additional observations from a re-analysis of the deposited data

How the results depend on the processing

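All results rest on 1 library per treatment, so the spread between cultures is unknown for both DOT1L inhibition and DMSO, and the no drug library differs from DMSO in replicate as well. No paired analysis was possible because DOT1L inhibition and DMSO have 1 library each and so share fewer than 2 replicate numbers. The 28 genes named by ratio kept their sign under every scaling, prior count and control tried. This is no check on them, because the rule that chose them required large ratios outside the other drug set libraries. That rule set their sign against DMSO and no drug alike. The median log2 ratio of all genes stayed between -0.04 and 0.01. HOX genes and cofactors kept a median of -0.65 to -0.28, the weakest without a filter on low counts.

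Under the 3 other scalings and a prior count of 0.5, no count of genes past 2-fold or 1.5-fold moved by more than 1.5 times. A prior count of 10 left 181 genes 2-fold higher and 18 lower, 144 genes 2-fold apart between no drug and DMSO and 86 between the LSD1 inhibition replicates (287 and 176 in the main analysis). Without a filter beyond 1 count, 1354 genes were 2-fold higher and 965 lower, 3463 were 1.5-fold higher and 3859 lower, and 5761 lay above and 4741 below the other 4 drug set libraries. The same setting put 2730 genes 2-fold apart between no drug and DMSO and 2208 between the LSD1 inhibition replicates. At a mean of 5 CPM, 68 and 15 genes were 2-fold and 250 and 157 genes 1.5-fold higher and lower, and 84 and 43 were 2-fold apart in these other comparisons. With no drug as control, 138 genes were 2-fold and 623 genes 1.5-fold lower. The comparisons of no drug with DMSO and of the LSD1 inhibition replicates were put under these settings after seeing the data. Of 396 list medians under these alternatives, 40 moved by more than the SD of the list's mean over the ungated libraries, and of 1841 gene ratios 282 moved out of their counting interval. Among 263 genes, 4 past 1.5-fold against DMSO changed sign against no drug. They were HDAC9 (0.59 to -0.18), ANKRD1 (0.95 to -0.24), IFIT1 (-0.65 to 0.63) and EGR1 (-0.84 to 0.42). The cause was not tested.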

Other observations

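Of 23 measured genes of iron storage and of the NRF2 response 6 were at least 1.5-fold higher than DMSO (all genes, 6.12%) and 0 lower, with a median log2 ratio of 0.27 (0.14 against no drug). DOT1L inhibition was above the other 4 libraries for 11 of 23 (all genes, 19.5%) and below them for 2, and above the other 24 for 1 of 23 (all genes, 9.33%). FTL, the ferritin light chain, was at 2068 CPM, with 1267 CPM in DMSO, 1318 and 1395 CPM under LSD1 inhibition and 1335 CPM in no drug. NQO1, a quinone reductase, was at 663 CPM, and the other 4 libraries lay between 383 and 439 CPM, although ungated cells reached 583 CPM. ABCC3, an export pump, was at 8.20 CPM against 1.81 CPM in DMSO, but ungated cells reached 12.7 CPM.

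Cytosolic ribosomal protein genes differed from DMSO by a median log2 ratio of 0.02, yet 28 of 52 were above all 24 other libraries (all genes, 9.33%) when the 25 libraries were scaled together. Some Notch targets separated the libraries by replicate number. HES1, a Notch target, was at 156 CPM under DOT1L inhibition, 135 CPM in DMSO and 114 CPM under LSD1 inhibition replicate 1, but 13.9 and 18.9 CPM in no drug and LSD1 inhibition replicate 2. HEY1, another target, was at 44.8, 25.96 and 31.3 CPM in the replicate 1 libraries and 1.37 and 2.48 CPM in those of replicate 2. The interferon list (37 measured) had a median of -0.02 against DMSO and 0.54 against no drug.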
